A study of Mus musculus with 24 samples.

Results

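Genes that set how much corticosteroid reaches a cell and how it is read, 5 in number, were followed through 24 mouse kidneys. They were Serpina6, which encodes corticosteroid binding globulin, the enzymes Hsd11b1 and Hsd11b2, and the receptor genes Nr3c1 and Nr3c2. All 5 were chosen by name, as the genes whose array probes map to them by accession, out of 27959 genes tested. Earlier results of these data were known when they were chosen. The kidneys came from male mice, labelled young adult, of the megabladder line, in which a bladder with defective smooth muscle fails to empty and the kidneys become hydronephrotic. Of these, 6 control kidneys were mgb+/+ and 18 kidneys were mgb-/-, of which 7 had mild, 5 moderate and 6 severe hydronephrosis. The study graded a kidney by the renal parenchyma that ultrasound still showed, so a grade describes the organ and not a separate genotype. No drug or hormone treatment is named for any group. Total RNA of each whole kidney was hybridised to its own single-colour array, and the labels leave unstated whether any 2 kidneys came from 1 mouse. P-values therefore measure the spread between kidneys, some of which may share an animal.

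Corticosteroids leave the adrenal gland and travel in plasma largely bound to corticosteroid binding globulin, a serpin without protease-inhibiting activity that is made mainly by the liver. Inside a cell, 11beta-hydroxysteroid dehydrogenase type 1 regenerates active corticosterone from its inert 11-keto form, whereas the type 2 enzyme inactivates it. The type 2 enzyme is known from the aldosterone-sensitive distal nephron, where it keeps corticosterone from occupying the mineralocorticoid receptor, the product of Nr3c2. The glucocorticoid receptor, the product of Nr3c1, is present in most cells. Both receptors wait in a chaperone complex, enter the nucleus on binding hormone and act on hormone response elements in DNA.

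Of the 5 genes, only 2 matched the RefSeq promoter sequences (GRCm38.p6), Hsd11b1 and Nr3c2, and both are shown. The levels of these genes varied most strongly in opposite directions among the mgb-/- kidneys, as described further on. Any part of the promoter sequences in this was not tested. Each runs from 250 bases before to 50 bases after the transcript start. Capitals mark CCAAT, the letters of the CCAAT box, or its reverse complement ATTGG. The first lies at chr1:193242311-193242610 on the minus strand and the second at chr8:76902080-76902379 on the plus strand, both printed 5′ to 3′ along the gene.
Hsd11b1: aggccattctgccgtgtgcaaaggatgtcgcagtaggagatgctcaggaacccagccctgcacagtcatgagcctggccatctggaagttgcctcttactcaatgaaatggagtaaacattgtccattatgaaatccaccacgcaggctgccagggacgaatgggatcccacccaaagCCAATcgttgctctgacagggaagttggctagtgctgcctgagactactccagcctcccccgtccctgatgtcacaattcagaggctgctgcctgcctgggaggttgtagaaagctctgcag
Nr3c2: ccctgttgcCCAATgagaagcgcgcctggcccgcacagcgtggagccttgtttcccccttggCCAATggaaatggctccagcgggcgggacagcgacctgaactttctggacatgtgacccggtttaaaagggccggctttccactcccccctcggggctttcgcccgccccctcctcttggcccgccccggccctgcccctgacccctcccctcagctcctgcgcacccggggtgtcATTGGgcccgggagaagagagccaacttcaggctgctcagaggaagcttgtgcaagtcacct
The Hsd11b1 window held 1 match and the Nr3c2 window 3, and 37.4% of all 32851 promoter windows of this length held at least 1. The receptor half-site AGAACA, or its reverse complement TGTTCT, was in neither window and in 19.0% of all windows. A match in letters is a description and not a site of binding.

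Probes for the 5 genes were kept if any array read them well above background. Every probe kept stood well above background on all 24 arrays. Between 55.6% and 70.7% of all probes did so on an array, and no spot was saturated. Values are log2 intensities relative to the 75th percentile of the array, so 0 marks that percentile, and a level of 1 gene cannot be set against that of another because their probes differ. The proximal tubule markers of the labelled tissue were present, with a median summed log2 level of 10.2 in control and 9.95 in mgb-/- kidneys, of which the lowest, severe 5, stood at 8.30. Among mgb-/- kidneys severe 5 also had the lowest sum of distal convoluted and connecting tubule markers, 5.35, and the highest of fibroblast markers, 8.33. Moderate 4 had the next lowest sum of those distal markers, 5.64, beside 6.91 to 7.46 in control kidneys. Markers of principal cells, which hold the type 2 enzyme and the mineralocorticoid receptor, summed to 5.60 to 6.24 in control and 5.36 to 7.00 in mgb-/- kidneys. By grade they summed to 6.20 to 6.97 in mild, 5.36 to 6.88 in moderate and 6.07 to 7.00 in severe kidneys. Urothelial markers summed to 3.93 to 4.73 in control and 6.28 to 7.90 in severe kidneys. The 8 measured markers of adrenal cortex had a summed log2 level of -0.28 to 0.43 in control kidneys. It reached 8.07 in the kidney mild 4 and 8.10 in moderate 1, but at most 2.79 in any other kidney. All 8 averaged higher in mgb-/- kidneys, none was called over all mgb-/- kidneys, and their median log2 change was 2.08. Of the 8, Cyp11a1, Mc2r and Cyp11b1 were well above background on 0, 0 and 1 control arrays and on 7, 11 and 8 mgb-/- arrays. They entered the tests through mgb-/- kidneys, so the direction and size of their changes partly reflect that filter. Of 8 hepatocyte markers, Ahsg and Hpx were called higher, beside 5.34% of all genes. Ahsg and Apoa1 were well above background on 0 control arrays, so they entered the tests only through mgb-/- kidneys. Serpinc1 averaged 0.93 lower (adjusted p = 0.0892) and was called lower in severe kidneys (-1.43, adjusted p = 0.0272). Alb was 0.35 higher on average (adjusted p = 0.881), at 2.13 for mild, -0.28 for moderate and -1.21 for severe kidneys. The summed level of the 8 ran from 1.49 to 2.10 in control and from 1.63 to 4.46 in mgb-/- kidneys. The part of these marker lists in the results was not tested, other than by leaving out mild 4 and moderate 1.

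Compared with control kidneys, mgb-/- kidneys had more Serpina6, less Hsd11b1 and, by the brighter of its 2 probes only, slightly less Nr3c1 message, and neither Hsd11b2 nor Nr3c2 was called. Serpina6 rose 19.8-fold, Hsd11b1 fell 2.23-fold and Nr3c1 fell 1.30-fold on average. Thus 3 of the 5 genes passed an adjusted p of 0.05 in limma, against 13.3% of all genes tested, of which 5.34% were higher and 8% lower. The 5 genes, and the gene lists below, were chosen with earlier results of these data known. The study had already named Serpina6 as its most changed message. Counts set beside the share of all genes are thus a description and not independent support. Per-grade comparisons share the same 6 control kidneys and are not independent of each other. In whole-kidney RNA, fewer cells of a type and less message per cell cannot be told apart.

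**Figure D1:**
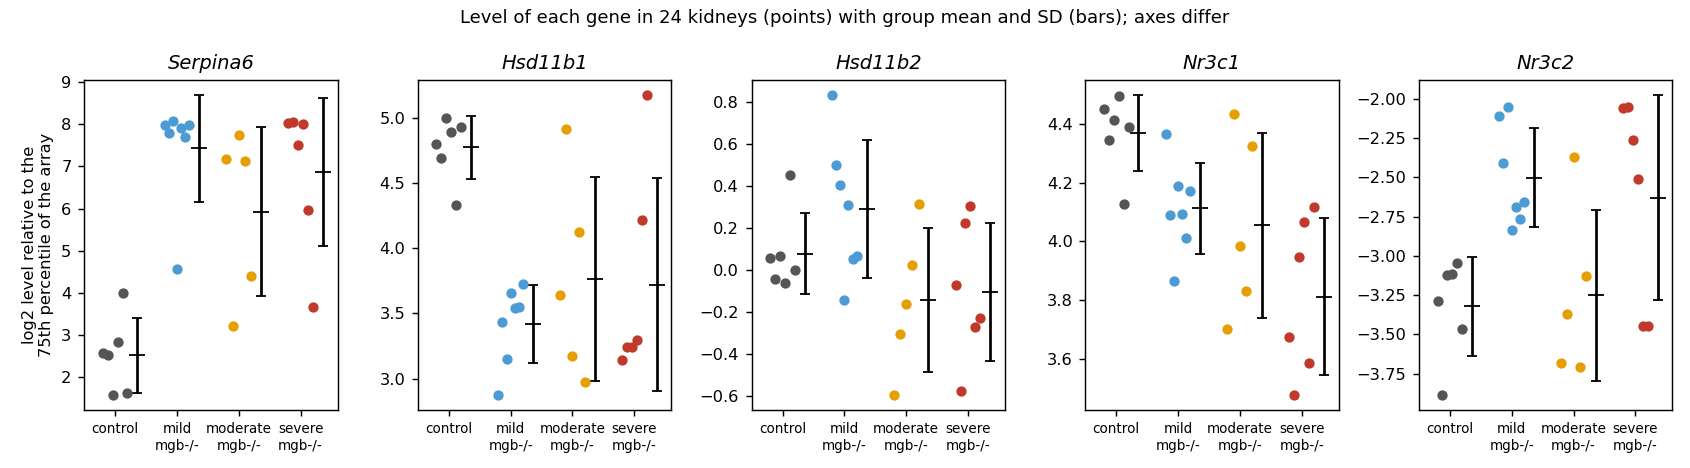
Log2 level relative to the 75th percentile of the array (vertical axes, which differ between panels) for the 5 genes in control and mild, moderate and severe mgb-/- kidneys. Points are kidneys and bars show the group mean and SD. Serpina6 lay between 1.57 and 3.99 in control and between 3.21 and 8.08 in mgb-/- kidneys, while Hsd11b2 overlapped in all 4 groups.

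Serpina6, the plasma carrier, was higher in mgb-/- kidneys by 2 separate probes. Its level in control kidneys ran from 1.57 through a median of 2.54 to 3.99. In mild kidneys it ran from 4.56 through 7.90 to 8.08. The control and mild ranges did not overlap. In the 5 moderate kidneys it was 7.18, 3.21, 7.75, 7.13 and 4.39, and in severe kidneys it ran from 3.66 through 7.75 to 8.07. Moderate and severe kidneys each included values under the highest control, although all 18 mgb-/- kidneys stood above the control mean. The log2 change over all mgb-/- kidneys was 4.31 (SE 0.70, adjusted p = 8.16e-04).

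High and low Serpina6 kidneys occurred in every grade. In 13 of 18 mgb-/- kidneys the level lay between 7.13 and 8.08, a spread of under 1 log2 unit. The other 5 were moderate 2 at 3.21, severe 6 at 3.66, moderate 5 at 4.39, mild 4 at 4.56 and severe 5 at 5.96. Each grade held at least 1 of these 5. By grade, the log2 change against control was 4.91 for mild (SE 0.80, adjusted p = 0.0015), 3.41 for moderate (SE 0.87, adjusted p = 0.0545) and 4.35 in severe kidneys (SE 0.83, adjusted p = 0.00278). The moderate value passed the threshold when moderate 2 was left out, at 4.09 (adjusted p = 0.0115), and likewise without moderate 5 at 3.80 (adjusted p = 0.0268). It also passed when mild 4, severe 5 or severe 6 was left out (adjusted p = 0.0412, 0.0365 and 0.0265). With other kidneys left out it was as low as 2.96, with adjusted p up to 0.195, and without both mild 4 and moderate 1 it was 3.10 (adjusted p = 0.159). A second Serpina6 probe gave a change of 4.67 over all mgb-/- kidneys (SE 0.77, adjusted p = 0.00113) and the same 5 kidneys lowest.

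The mean of Serpina6 was higher in mgb-/- than in control kidneys on each slide. Each of the 3 slides held 2 control and 6 mgb-/- kidneys, and the difference of means was 4.45, 2.87 and 5.61. The ranges overlapped on slide 2, which held control 5 at 3.99 and moderate 2 at 3.21. Without mild 4 and moderate 1, the kidneys with high adrenal markers, the change was 4.43 (adjusted p = 0.00103). Adrenal markers were still higher with those kidneys left out. Over all mgb-/- kidneys their median change was 1.24 and none of 8 was called, beside 11.7% of all genes. In mild kidneys it was 1.98 and 3 of 8 were called, beside 6.99% of all genes. Of the 8, Cyp11a1, Mc2r and Cyp11b1 were well above background on at most 1 control array. The part of adrenal markers in the Serpina6 level was not tested beyond this.

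Hsd11b1, which regenerates active hormone, was lower in mgb-/- kidneys. Control kidneys ran from 4.33 through a median of 4.85 to 5.00, and mild kidneys from 2.88 through 3.54 to 3.73. These ranges did not overlap. Moderate kidneys stood at 3.64, 4.92, 3.18, 4.12 and 2.97, and severe kidneys ran from 3.14 through 3.27 to 5.18. Moderate 2 at 4.92 and severe 6 at 5.18 stood within or above the control range, and severe 5 at 4.22 and moderate 4 at 4.12 just under it. The log2 change was -1.16 over all mgb-/- kidneys (SE 0.26, adjusted p = 0.00706, lower than the control mean in 16 of 18). The probe was printed 10 times per array, and the SD over those spots had a median of 0.053 over the 24 arrays, with the highest, 0.24, in severe 4. The SD between control kidneys was also 0.24.

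By grade, Hsd11b1 changed by -1.35 for mild (SE 0.31, adjusted p = 0.0133), -1.01 for moderate (SE 0.34, adjusted p = 0.12) and -1.05 in severe kidneys (SE 0.32, adjusted p = 0.031). The moderate value was called without moderate 2, at -1.30 (adjusted p = 0.0264), and with no other single kidney left out. With other kidneys left out it was as small as -0.81, with adjusted p up to 0.296. Without both mild 4 and moderate 1 the moderate value was -0.98 (adjusted p = 0.31). The severe call was lost when any of 8 kidneys was left out, namely controls 1, 3, 4 and 6 or severe 1, 2, 3 and 4, with adjusted p between 0.0522 and 0.0762. Within slides the difference over all mgb-/- kidneys was -1.30, -0.79 and -1.38.

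Hsd11b2, which inactivates corticosterone, was not called in any comparison. It ran from -0.06 through 0.03 to 0.45 in control, and from -0.14 through 0.31 to 0.83 in mild kidneys. Moderate kidneys stood at -0.59, -0.30, -0.16, 0.03 and 0.32, and severe kidneys ran from -0.57 through -0.15 to 0.30. All 4 ranges overlapped. The log2 change over all mgb-/- kidneys was -0.04 (SE 0.16, 95% interval -0.37 to 0.29, adjusted p = 0.898), so a change beyond 0.37 in either direction lay outside the interval.

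The enzymes were then compared within each kidney, as the log2 level of Hsd11b2 minus that of Hsd11b1. A shift of this difference between groups is the change of Hsd11b2 minus that of Hsd11b1, so it repeats the values given above. The difference rose by 1.12 over all mgb-/- kidneys (exact permutation test, two-sided, p = 0.00713, adjusted over 8 tests p = 0.0114). Its mean was -4.70 ± 0.41 (SD, n = 6) for control kidneys and -3.58 ± 0.87 (SD, n = 18) for the mgb-/- kidneys. The shift was 1.56 for mild (exact permutation adjusted p = 0.00233), 0.79 for moderate (exact permutation adjusted p = 0.119) and 0.87 in severe kidneys (exact permutation adjusted p = 0.104). Without moderate 2 the moderate shift was 1.11 (exact permutation adjusted p = 0.019), and without severe 6 the severe shift was 1.19 (exact permutation adjusted p = 0.0144). Within slides the difference was 1.24, 0.71 and 1.40 for slides of 2 control and 6 mgb-/- kidneys.

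**Figure D2:**
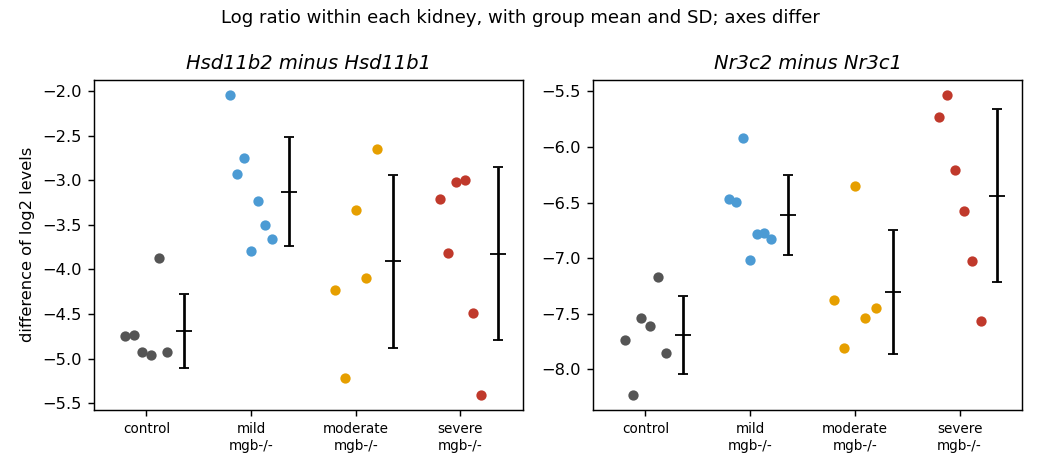
Difference of log2 levels within each kidney (vertical axes, which differ) for Hsd11b2 minus Hsd11b1 and for Nr3c2 minus Nr3c1, by group. Points are kidneys and bars show the mean and SD. Mild kidneys stood wholly above control kidneys in both panels.

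Nr3c1, the glucocorticoid receptor gene, was read by a bright and a dim probe that disagreed. With the bright probe, control kidneys ran from 4.13 through 4.40 to 4.50 and mild kidneys from 3.87 through 4.09 to 4.37. Moderate kidneys stood at 3.70, 4.44, 3.98, 3.83 and 4.32, and severe kidneys ran from 3.48 through 3.81 to 4.12. Severe kidneys lay just under the control range, at most 4.12 against 4.13 in control 5. In the authors' normalized table the 2 ranges overlapped, with severe 4 at 13.48 and control 5 at 13.14. The log2 change was -0.38 over all mgb-/- kidneys (SE 0.12, adjusted p = 0.0378, lower in 17 of 18), and by grade -0.26 for mild (adjusted p = 0.253), -0.32 for moderate (adjusted p = 0.23) and -0.56 in severe kidneys (SE 0.13, adjusted p = 0.0105). The dim probe instead gave 0.21 over all mgb-/- kidneys (SE 0.19, adjusted p = 0.522) and 0.38 in severe kidneys (adjusted p = 0.286).

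The call for Nr3c1 over all mgb-/- kidneys was also close to its threshold. It was lost when any of 7 kidneys was left out, namely controls 1, 2, 3, 4 and 6, moderate 1 or severe 1, with adjusted p between 0.0512 and 0.0891. It was lost with quantile normalization (-0.23, adjusted p = 0.136) and in the authors' normalized table (-0.25, adjusted p = 0.126). The severe call was lost in the authors' table (-0.36, adjusted p = 0.0583) and with the mean of both probes (-0.09, adjusted p = 0.734). Within slides the difference over all mgb-/- kidneys was -0.52, -0.16 and -0.45.

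Nr3c2, the mineralocorticoid receptor gene, ran from -3.88 through -3.21 to -3.04 in control and from -2.83 through -2.65 to -2.05 in mild kidneys. These ranges did not overlap. Moderate kidneys stood at -3.68, -3.37, -2.37, -3.71 and -3.13, and severe kidneys ran from -3.45 through -2.38 to -2.05. Severe 5 and 6 remained in the control range while the other 4 severe kidneys stood above it. The change over all mgb-/- kidneys was 0.57 (SE 0.24, adjusted p = 0.122, higher in 13 of 18). By grade it was 0.82 for mild (SE 0.26, adjusted p = 0.0594), 0.07 for moderate (adjusted p = 0.93) and 0.69 in severe kidneys (SE 0.27, adjusted p = 0.0762). Without severe 5 or without severe 6 the severe value was called, at 0.86 in both cases (adjusted p = 0.0392 and 0.019). The mild value, unchanged at 0.82, was called when moderate 3, severe 5 or severe 6 was left out (adjusted p between 0.0353 and 0.0369). It was also called in a fit of mild and control kidneys alone (adjusted p = 0.00505) and with probes well above background on all 24 arrays (adjusted p = 0.0437). With array quality weights both grades were called, mild at 0.73 (adjusted p = 0.0018) and severe at 0.94 (adjusted p = 0.00242). With other kidneys left out, the mild value was as low as 0.71, with adjusted p up to 0.13. The severe value was then as low as 0.58, with adjusted p up to 0.173. Without both mild 4 and moderate 1 neither grade was called (adjusted p = 0.0527 for mild and 0.0836 for severe).

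Within each kidney, Nr3c2 minus Nr3c1 rose by 0.94 over all mgb-/- kidneys with the bright Nr3c1 probe (exact permutation test, two-sided, p = 0.00313, adjusted p = 0.00834). As for the enzymes, such a shift is the change of Nr3c2 minus that of Nr3c1, given above. The shift was 1.08 for mild (exact permutation adjusted p = 0.00233), 0.38 for moderate (exact permutation adjusted p = 0.199) and 1.25 in severe kidneys (exact permutation adjusted p = 0.0114). With the dim Nr3c1 probe the shift was 0.36 over all mgb-/- kidneys (exact permutation adjusted p = 0.125) and 0.31 in severe kidneys (exact permutation adjusted p = 0.215). It stayed called with that probe in mild kidneys, at 0.67 (exact permutation adjusted p = 0.0117). Within slides the difference over all mgb-/- kidneys with the bright probe was 0.88, 0.74 and 1.21.

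**Figure D3:**
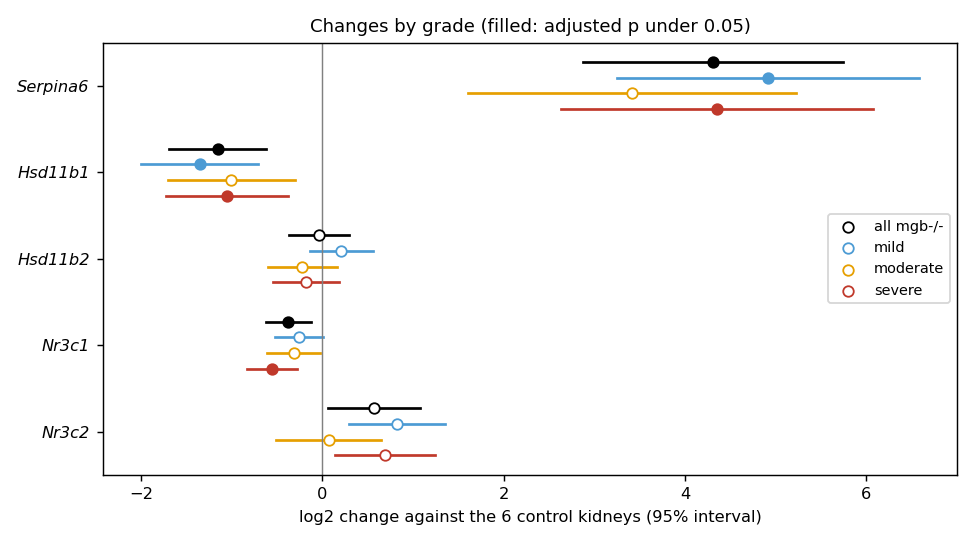
Log2 change against the 6 control kidneys (horizontal axis) with its 95% interval for the 5 genes, over all mgb-/- kidneys and by grade. Filled points passed an adjusted p of 0.05. Serpina6 and Hsd11b1 were called over all mgb-/-, mild and severe kidneys, and Nr3c1 over all mgb-/- and severe kidneys.

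In mild kidneys 2 of the 5 genes were called against 6.02% of all genes, in moderate kidneys 0 against 1.2%, and in severe kidneys 3 against 16.1%. None of the 5 was called between grades in limma. The share of all genes called was 0.587% for severe against mild, 0% for moderate against mild, 0.00715% for severe against moderate and 0.232% for the slope on grade over the 18 mgb-/- kidneys. At an unadjusted p under 0.05, which 11.1% of all genes passed for severe against mild and 6.67% for moderate against mild, 2 of the 5 differed between severe and mild kidneys, Nr3c1 by -0.30 (adjusted p = 0.386) and Hsd11b2 by -0.39 (adjusted p = 0.394), and 2 between moderate and mild kidneys, Nr3c2 by -0.75 (adjusted p = 0.576) and Hsd11b2 by -0.43 (adjusted p = 0.649). The severe minus moderate difference of Nr3c2 was 0.62 (adjusted p = 0.453). Per step of grade, Nr3c1 changed by -0.15 and Hsd11b2 by -0.20 (adjusted p = 0.573 for both). For Serpina6 the severe minus mild difference was -0.56, with a 95% interval of -2.22 to 1.10.

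Several pairs of the 5 genes varied together or oppositely from kidney to kidney. How often other pairs of genes on the array correlate as strongly over these kidneys was not tested. Over the 18 mgb-/- kidneys, Nr3c2 and Hsd11b1 had r = -0.71 and rho = -0.74 (permutation test, two-sided, p = 0.00043 and 0.00058, adjusted over 10 pairs p = 0.0043 and 0.0029). With the 2 kidneys farthest from the median of Nr3c2 left out, moderate 1 and 4, r was -0.79, and with the grade mean subtracted it was -0.76. Within the 3 slides, with 6 mgb-/- kidneys each, r was -0.81, -0.63 and -0.93. Of the 10 pairs this was the one with the largest r in size.

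Serpina6 and Hsd11b1 had r = -0.68 and rho = -0.57 (permutation adjusted p = 0.0186 and 0.0455). Its size depended on which kidneys were counted. Without moderate 2 and severe 6, the kidneys with the lowest Serpina6, r was -0.20 (permutation p = 0.473), and both had Hsd11b1 above the control median. Moderate 5, among the 16 kidneys then left, had Serpina6 at 4.39 and the second-lowest Hsd11b1 of all, 2.97. Among the 13 kidneys with Serpina6 above 7, which include none of these 3, r was -0.64 (permutation adjusted p = 0.0473). Within slides r was -0.34, -0.53 and -0.99.

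Serpina6 and Nr3c2 had r = 0.62 and rho = 0.81 (permutation adjusted p = 0.0186 and 6.0e-04), and r was 0.52 without moderate 2 and severe 6 (permutation p = 0.0343). With the grade mean subtracted, r was 0.55 (permutation adjusted p = 0.0495) and rho was 0.46, so part of the rho of 0.81 lay between grades. Within slides r was 0.30, 0.79 and 0.88, and among the 13 kidneys with high Serpina6 it was 0.85 (permutation adjusted p = 0.00687). For Hsd11b1 and Hsd11b2, rho was -0.55 (permutation adjusted p = 0.0455) and r was -0.47 (permutation adjusted p = 0.0941). With the grade mean subtracted, this pair had a rho of -0.45 and an r of -0.41 (permutation adjusted p for r = 0.149). None of the other 6 pairs passed the adjusted threshold by r or by rho. In the control group, control 5 had the highest Serpina6, 3.99, the lowest Hsd11b1, 4.33, and the highest Hsd11b2, 0.45.

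**Figure D4:**
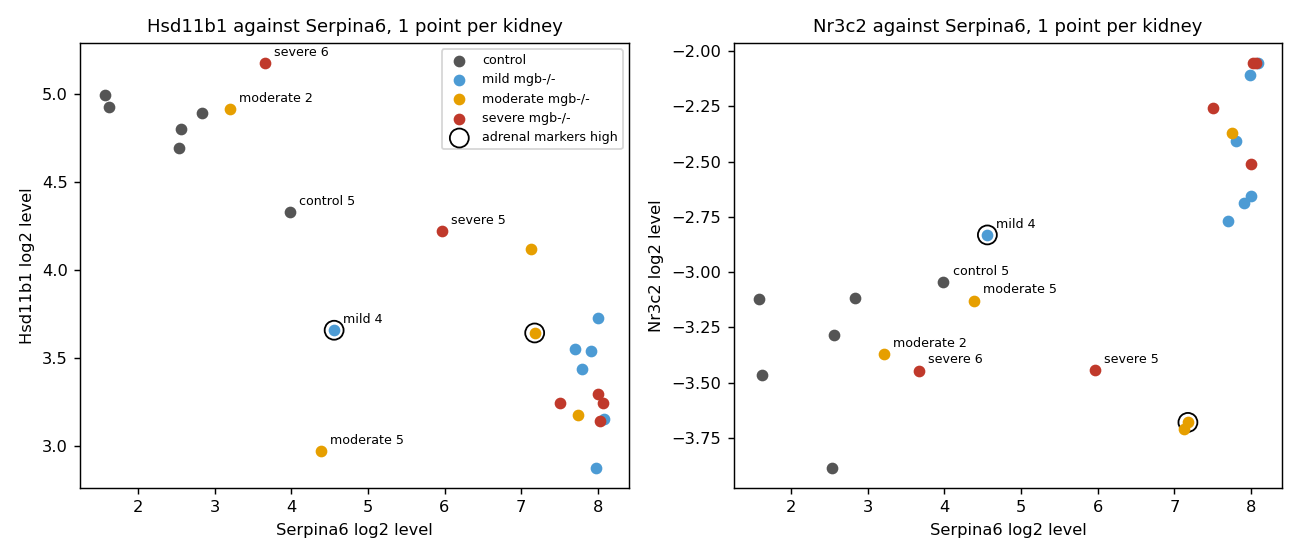
Log2 level of Hsd11b1 (left) and Nr3c2 (right) against that of Serpina6, 1 point per kidney, coloured by group. Rings mark the 2 kidneys with high adrenal cortex markers. Moderate 2 and severe 6 lay beside the control kidneys in the left panel, with Hsd11b1 at 4.92 and 5.18.

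Genes whose level followed each member most closely were sought over the 18 mgb-/- kidneys after the grade mean was subtracted, among 20487 genes, as a description. For Serpina6 the named ones among the first 5 were Cbr1, a carbonyl reductase (r = 0.97), Abcc3, an organic anion exporter (r = 0.97), and Map2, a microtubule-associated protein (r = 0.96). All 3 were also called higher in mgb-/- kidneys, by 1.94, 2.95 and 0.98. For Nr3c2 the closest was the transcription factor Nfia (r = 0.96), which was not called (0.24, adjusted p = 0.543). Nr3c1 was followed by Kmt5c (r = 0.92) and R3hdm1 (r = 0.92), Hsd11b1 by 2310022B05Rik (r = 0.89), Sgcb (r = 0.88) and Pdlim2 (r = 0.88), and Hsd11b2 by Tbata (r = 0.80) and Wscd2 (r = 0.80). The largest of many correlations is high by selection, so these have no test.

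Serpina6 lies on chromosome 12 in a cluster of clade A serpins. Of its 3 nearest measured genes on either side, Serpina10, a neighbour that encodes an inhibitor of activated coagulation factor X, also rose, by 2.88 (SE 0.65, adjusted p = 0.00716). Ifi27l2b, Ppp4r4, Serpina1f, Serpina1d and Serpina1a were not called, with log2 changes from 0.00 to 0.56. Across 16 measured clade A serpins other than Serpina6, Serpina10 and Serpina3m were called higher and Serpina3a lower, 3 of 16 beside 13.3% of all genes, and the median log2 change was 0.58 beside 0.01 for all genes. Near-identical copies within the Serpina1 and Serpina3 groups can share signal on a probe, so those values are uncertain.

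Of 6 other measured plasma carriers, 1 was called higher and 1 lower, where 13.3% of all genes were called. Rbp4, the carrier of retinol, rose by 1.52 (SE 0.34, adjusted p = 0.00741) and Afp, alpha-fetoprotein, fell by 1.24 (SE 0.17, adjusted p = 1.78e-04). Ttr, Gc, Alb and Shbg were not called over all mgb-/- kidneys, and the median was 0.32.

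Of 8 enzymes that feed or clear corticosteroids, 1 was called, a share near the 13.3% of all genes. H6pd, which supplies the cofactor of the type 1 enzyme, changed by -0.12 (SE 0.14, adjusted p = 0.623). Akr1c14, a 3alpha-hydroxysteroid dehydrogenase, fell by 3.35 (SE 0.85, adjusted p = 0.0137) and was the one called. The list had a median of -0.15.

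Of 8 measured receptor chaperones, 5 fell and none rose, beside 8% of all genes called lower, with a median of -0.43 beside 0.01 for all genes. The 5 were Hsp90aa1 (-0.64, adjusted p = 0.00104) and Hsp90ab1 (-0.49, adjusted p = 0.00294), the forms of Hsp90 that hold the receptors, Dnaja1 (-0.75), Fkbp4 (-0.52) and Stip1 (-0.37). Hspa8 and Ptges3 changed by -0.10 and -0.13 and were not called, and Fkbp5, an immunophilin that is itself induced by glucocorticoids, changed by 0.51 (adjusted p = 0.247). Between 4 and 5 were called under the other scalings, all lower, where 1964 to 2802 of all 27959 genes were called lower. These chaperones serve many proteins besides the receptors.

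Of 16 measured genes known to respond to glucocorticoids, 9 rose in mgb-/- kidneys and none fell, beside 5.34% of all genes called higher, with a median of 1.11 beside 0.01 for all genes. From 6 to 11 were called under the other scalings, where 601 to 1464 of all 27959 genes were called higher. All 16 averaged higher. Among them were Zbtb16 (2.63, adjusted p = 0.0094), Cebpd (1.97, adjusted p = 1.88e-05), Cebpb (1.58), Dusp1 (1.51), Ddit4 (1.37) and Nfkbia (1.35). Tsc22d3, Fkbp5 and Klf9, often read as glucocorticoid targets, were not called, at 0.69, 0.51 and 0.29. Several of the 9 respond to stress and cytokines as well. This list too was chosen with earlier results of these data known. The count called was 9 for the mild, 4 for the moderate and 7 for the severe grade. Beside these, 6.02%, 1.2% and 16.1% of all genes were called in either direction. Without mild 4 and moderate 1 the counts were 9, 1 and 6, while the share of all genes called became 6.99%, 0.0358% and 14.8%, so that calls in moderate kidneys were lost across the array and not in this list alone.

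Of 14 measured aldosterone-responsive and distal sodium transport genes, 2 were called, a share near the 13.3% of all genes. Of these, Sgk1, the kinase that promotes sodium reabsorption, rose by 1.17 (SE 0.34, adjusted p = 0.0261) and Stk39, a kinase that activates distal cotransporters, by 0.58 (SE 0.15, adjusted p = 0.0152). The channel subunits Scnn1a (0.41) and Scnn1b (0.15) and the cotransporter Slc12a3 (-0.16) were not called. The list had a median of 0.26. Without mild 4 and moderate 1, 3 genes were called, beside 11.7% of all genes. With scaling by the array median none was, where 601 of all 27959 genes were called higher and 2802 lower.

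**Figure D5:**
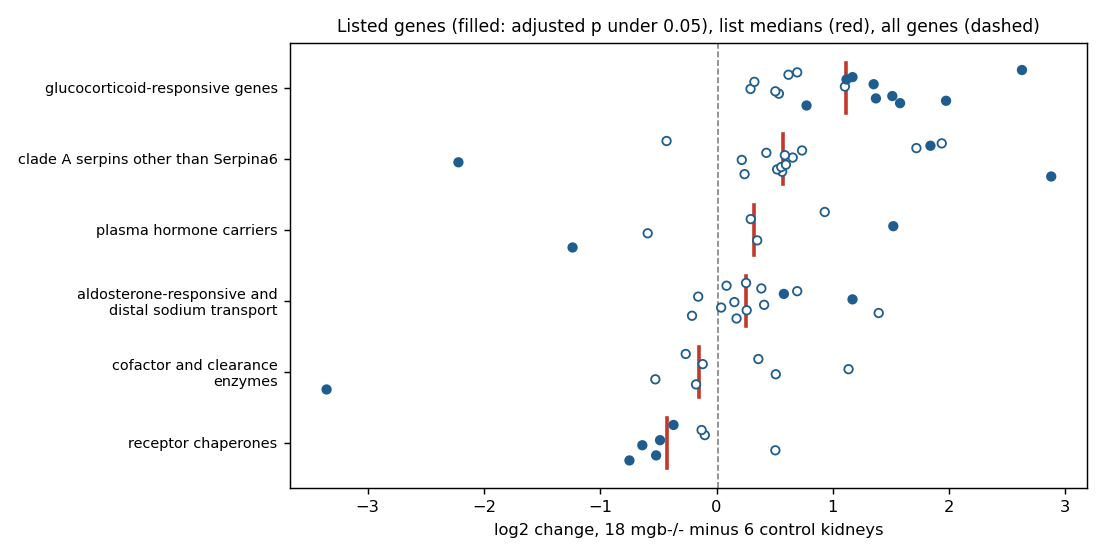
Log2 change of mgb-/- minus control kidneys (horizontal axis) for the measured genes of 6 lists, 1 point per gene. Filled points passed an adjusted p of 0.05, red bars are list medians and the dashed line is the median of all genes, 0.01. The glucocorticoid-responsive genes all lie right of the line, and 7 of 8 receptor chaperones lie left of 0, the exception being Fkbp5.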

How the data were processed

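Per the labels, 24 single-colour (Cy3) Agilent 8x60K arrays, 1 whole kidney each, were read with Agilent Feature Extraction 10.10. The deposited intensity is background-subtracted and detrended within the array, not between arrays. A second deposited table gives the authors' intensities after normalization between arrays, by a method not given in the sources used here. Here the intensity was converted to log2 and each array's 75th percentile subtracted. Spots marked as outliers were left out. A probe entered the tests if 5 or more arrays read it well above background (38838 of 55681). RefSeq accessions named 26762 probes. The files' build (mm9) differs from that table's (GRCm38.p6), so it gave only names and gene order, and coordinates only for promoters. Each gene was read by its brightest probe.

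Comparisons used limma 3.58.1 in R 4.3.3, with Benjamini-Hochberg adjustment over 27959 genes and calls at an adjusted p under 0.05. The mgb-/- against control fit had 2 groups, grade fits had 4, and a slope was fitted over the 18 mgb-/- kidneys. Log ratios used exact permutation tests and pairs of genes 100000 permutations, in Python 3.11.15. The limma step was tested on simulated data. The number of arrays limits the precision. The genes and lists were chosen with earlier results of these data known. Named genes are the 5 genes, the listed genes, the genes closest to each member by r and the neighbours of Serpina6. Another 2 lists are not reported here. Alternatives covered the scaling, background correction (normexp on the deposited median spot and background intensities, where mean spot intensities had been planned), filter, probe choice, slide or replicate number as a block, array weights and each kidney left out.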

Additional observations from a re-analysis of the deposited data

Results flagged for a closer look

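Single kidneys far from the rest of their group were sought in 36 groups of values (7 probes and 2 log ratios in 4 groups), where chance alone would flag about 1 in 20. In the mild group, the kidney mild 4 had a Serpina6 level of 4.56 while the other 6 began at 7.70, and its second probe read 2.80 while the others began at 6.39. Mild 4 also had one of the 2 high summed levels of adrenal cortex markers, 8.07, and the part of that in its Serpina6 level was not tested. In the control group, control 5 had a Hsd11b2 level of 0.45 while the next was 0.07, and a Hsd11b2 minus Hsd11b1 difference of -3.87 while the next was -4.74.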

How the results depend on the processing

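Over all mgb-/- kidneys, the calls of Serpina6 and Hsd11b1 held under every alternative run. With each kidney left out in turn, Serpina6 ranged from 4.12 to 4.60, Hsd11b1 from -1.25 to -1.11, Nr3c1 from -0.42 to -0.34, Nr3c2 from 0.46 to 0.62 and Hsd11b2 from -0.087 to 0.035. The fall of Nr3c1 was not called with quantile normalization (-0.23), in the authors' table (-0.25), without the filter on dim probes (-0.38), with the mean of its probes (-0.084) or with the replicate block (-0.38), and it was 0.21 with the second probe. Nr3c2 was called with array quality weights (0.63). The uncalled Hsd11b2 value was 0.075 with those weights and 0.010 without mild 4 and moderate 1. The replicate block ended no other call of the 5 genes. Of 33 same-numbered pairs, 10 had deviations correlated over 0.1 (r from -0.55 to 0.65, median 0.0048), among them control 1, mild 1 and severe 1 at 0.56 to 0.65, beside -0.67 to 0.58 for 182 pairs of different number. The labels give the number no meaning, and as not every pair was over 0.1, the kidneys were not treated as paired.

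The number of genes called in moderate kidneys went from 0 to 1 with quantile normalization, normexp, the authors' table, the filter on all 24 arrays or an adjusted p under 0.1, and to 3 with array weights. Array weights also gave 4 in mild kidneys, 1 for moderate against mild and 1 for severe against moderate, and the authors' table gave 1 in severe kidneys. With a kidney left out these counts ranged from 2 to 3 over all mgb-/- kidneys, 2 to 3 in mild, 0 to 2 in moderate and 2 to 4 in severe kidneys, and stayed 0 between grades. The severe call of Hsd11b1 was lost with quantile normalization, in the authors' table and with the compared groups alone. That last alternative is the same fit for all mgb-/- kidneys and was not run there.

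Leave-one-out shifts of Hsd11b2 minus Hsd11b1 ran from 1.03 to 1.28 over all mgb-/-, 1.38 to 1.73 for mild, 0.47 to 1.11 for moderate and 0.71 to 1.19 for severe kidneys. Those of Nr3c2 minus Nr3c1 ran from 0.84 to 1.05, 0.96 to 1.18, 0.15 to 0.51 and 1.07 to 1.48. With the second Nr3c1 probe the receptor shift was 0.36 over all mgb-/-, -0.013 for moderate and 0.31 for severe kidneys. For pairs, subtracting the grade mean gave r = -0.57 for Serpina6 and Nr3c1, now past the threshold. The authors' table gave 0.56 for Nr3c1 and Hsd11b2, now past it, and -0.011 for Nr3c1 and Hsd11b1. Among the 13 kidneys with high Serpina6, r was 0.19 for Serpina6 and Nr3c1, 0.10 for Nr3c1 and Nr3c2, -0.12 for Nr3c1 and Hsd11b1 and 0.81 for Nr3c1 and Hsd11b2.

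Signs that changed, in values not called under these alternatives, were as follows. Nr3c1 with the second probe was 0.15 for mild, 0.081 for moderate and 0.38 for severe kidneys, 0.23 for severe against mild and 0.30 for severe against moderate, the last also 0.027 with the mean of its probes. Nr3c2 in moderate kidneys was -0.042 with quantile normalization, -0.078 with median scaling, -0.055 in the authors' table, -0.015 with the replicate block and -0.14 with array weights, and with a kidney left out it ran from -0.15 to 0.18. With array weights, severe against mild was 0.21 for Nr3c2 and -0.023 for Hsd11b1, and the slope of Nr3c2 was 0.013. Hsd11b1 for severe against moderate was 0.038 with quantile normalization and 0.042 in the authors' table, and from -0.34 to 0.24 with a kidney left out. Without mild 4 and moderate 1, moderate against mild was 0.043 for Nr3c1 and severe against moderate was -0.071 for Hsd11b2. With a kidney left out, severe against mild ran from -1.04 to 0.081 for Serpina6 and -0.24 to 0.037 for Nr3c2, moderate against mild from -0.15 to 0.031 for Nr3c1, and severe against moderate from -0.071 to 0.16 for Hsd11b2. The cause was not tested for any of these.

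Scaling by the array median moved the median change of all genes from 0.01 to -0.15, and the calls from 1494 higher and 2238 lower to 601 and 2802. Leaving out mild 4 and moderate 1, using a second probe and taking the 13 kidneys apart were chosen after seeing the data.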
